A study of Mus musculus with 8 samples.

Results

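The mitochondrial ribosomal proteins were represented by 78 of the 27179 genes counted in RNA from neonatal cardiomyocytes (NCMs). They are the protein-coding genes whose mouse symbol reads Mrpl or Mrps followed by a number and, for some, a letter, a rule on names that uses no measured value. By the known place of the protein, 51 belong to the large subunit of the mitochondrial ribosome and 26 to the small subunit, while Mrps36 carries the family name although its product is a subunit of the α-ketoglutarate dehydrogenase complex. Mrps18a and Mrps30 are counted with the large subunit, where their proteins sit in spite of their names. A filter on low counts kept 14966 of all genes, and 77 of the 78 members passed it. The exception was Mrpl36, a small protein of the large subunit, with 14 counts over the 8 libraries, between 1 and 4 in each. These were too few to show a difference, while every tested member had 2023 counts or more. Whether they reflect the level of Mrpl36 or how its reads were counted was not tested.

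The mitochondrial ribosome translates the few messages of mitochondrial DNA, which encode core subunits of the respiratory chain and of ATP synthase. Its own proteins are all encoded in the nucleus, translated in the cytosol and imported, and they assemble in the organelle with ribosomal RNA that is transcribed there. Many have a counterpart in bacterial ribosomes and others are found only in mitochondria. The working heart depends on oxidative phosphorylation, and inherited defects in MRPL3, MRPL44, MRPS14 and MRPS22 are known in children with cardiomyopathy.

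RNA-seq was performed on NCMs from C57Bl/6J males on postnatal day 0, with 1 heart per library. Their dams breathed filtered air (FA, 4 libraries) or diesel exhaust (DE, 4 libraries) from embryonic day 0.5 until late gestation, and neither genotype nor strain differed between the groups. Hearts were freed of atria and vessels and dissociated, and a plating step with Ara-C was used to take out fibroblasts. It is not stated whether the hearts of a group came from separate litters, so p-values measure the spread between these libraries. The libraries are named by group and replicate number (FA replicates 2, 3, 4 and 6, and DE replicates 1, 3, 5 and 7). The sample names also carry a prefix, 12 for DE replicates 3 and 5 and 11 for the other 6, whose meaning is not stated.

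Library totals lay between 17943024 and 39839737 counts, and the members took between 0.254% and 0.358% of them. Cardiomyocyte markers were abundant, with a summed level of 10 genes of 76064 to 80956 CPM (counts scaled to library size) in FA and 63899 to 74303 in DE. Of these 10 genes 9 were below 0 in DE minus FA and 3 were called, Myh6 and Pln lower and Myh7 higher (5.8% of all tested genes were called). Of 8 fibroblast markers 8 were above 0 in DE minus FA, with 2 called (Col1a1 and Dcn) and summed levels of 2007 to 3459 CPM in FA and 3653 to 6173 in DE. The summed levels of 7 endothelial markers were 905 to 1192 CPM in FA and 961 to 1430 in DE, of 7 smooth muscle and pericyte markers 1101 to 1755 and 779 to 1184, of 7 leukocyte markers 12.2 to 18.3 and 15.2 to 26.0, and of 6 erythroid markers 759 to 1879 and 1208 to 2021. Among these, Itgam of the leukocyte (0.39 to 1.12 CPM) and Slc4a1 of the erythroid markers (1.28 to 4.48 CPM) were called higher in DE, both at low levels. Estimates were above 0 for 6 of 7 endothelial, 4 of 7 smooth muscle and pericyte, 4 of 5 tested leukocyte and 6 of 6 erythroid markers. The part of these cells in the levels of the members was not tested. In RNA from a whole preparation, fewer cells of a type and less RNA per cell cannot be told apart.

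Levels per transcript length, as FPKM (CPM divided by transcript length in kilobases), spanned 72.3-fold among the members in FA, from 3.32 to 240 with a median of 25. The median was 27.7 FPKM for the 50 tested genes of the large subunit and 22.3 for the 26 of the small subunit. Mrpl42, a protein of the large subunit found only in mitochondria, was the most abundant, at 240 ± 47.3 FPKM in FA and 262 ± 49.4 in DE (SD, n = 4 each). Mrpl33 (106 ± 18.5 in FA), Mrpl30 (103 ± 14.2) and Mrps21 (92.0 ± 21.7 FPKM) followed, and these 3 did not differ beyond their spread. Mrpl18, the counterpart of bacterial L18 in the central protuberance, stood at 71.0 ± 7.67 and Mrpl52 at 64.4 ± 12.5 FPKM in FA. The order is that of the mean over both groups, and in FA alone Mrps23, a small subunit protein, lay above Mrpl52 at 67.6 ± 7.92 FPKM. At the other end were Mrpl19 (5.60 ± 0.502), Mrpl57 (5.57 ± 0.960), Mrpl17 (3.88 ± 0.338) and Mrps25 (3.32 ± 0.491 FPKM in FA). With the longest transcript of each gene in place of the median length, the same 6 genes led by the mean over both groups, with Mrpl30 and Mrps21 in exchanged places, but the lower end changed. Mrps17, the counterpart of bacterial S17, went from 10.6 to 1.82 FPKM (mean of all libraries) and was then the lowest tested member, followed by Mrpl17 (2.31) and Mrps25 (3.62 FPKM). The order was nearly the same in both groups, with a Spearman coefficient of 0.989 over the 77 genes. The same length of each gene was used for both groups.

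**Figure D1:**
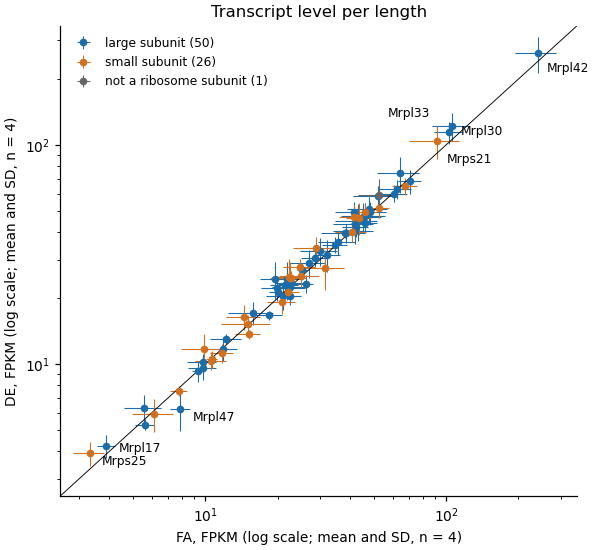
Mean level of each of the 77 members in DE (vertical axis) against FA (horizontal axis), in FPKM on log scales, with SD over 4 libraries as bars and the line of equal level. The genes lie along the line from Mrps25 (3.32 FPKM in FA) to Mrpl42 (240 FPKM in FA).

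To ask whether in utero exposure to DE altered the members, DE and FA were compared over all tested genes by edgeR's quasi-likelihood method, and calls required both an adjusted p no greater than 0.05 and a change of 25% or more. None of the 77 members was called in either direction (0 higher, 0 lower), against 5.8% of all genes tested (868 genes, 3.58% higher and 2.22% lower in DE). None had FA and DE groups that did not overlap, against 14.7% of all genes (7.26% lower and 7.44% higher), and 2 members reached p under 0.05 before adjustment, against 25.6%. That count was 1, 5, 1 and 3 without FA replicates 2, 3, 4 and 6, 1, 0, 2 and 1 without DE replicates 1, 3, 5 and 7, and 10 with offsets for length and GC content. The lowest adjusted p of a member was 0.177 in the same test. The log2 differences of the members lay between -0.33 and 0.34 with a median of 0.05, beside 0.00 for all genes, and 49 were above 0 (63.6%, against 50.5% of all genes) and 28 below.

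The intervals come from the fit on exposure alone, which takes the libraries of a group as independent and has no prefix term. They bound a missed difference only under those terms. The 95% interval of the log2 difference lay within the 25% used for calls, in either direction, for 25 members (13.2% of all genes), within 1.5-fold for 74 (54% of all genes) and within 2-fold for all 77 (84.8% of all genes). The lowest bound was -0.65 for Mrpl47 and the highest 0.68 for Mrpl14. The median standard error was 0.131, and the median coefficient of variation was 14.7% in FA and 11.7% in DE. Leaving out 1 library at a time gave 0 called members each time. Among all genes the share called was 1.69%, 2.8%, 1.53% and 5.34% without FA replicates 2, 3, 4 and 6, and 7.93%, 1.82%, 3.56% and 4.64% without DE replicates 1, 3, 5 and 7. Members called also numbered 0 with DESeq2 (10.9% of all genes), the likelihood ratio test (10.7%), limma-voom (5.75%), a test against a 25% difference (0.762%), relative log expression factors (5.75%), library totals alone (6.82%), no filter (3.98%), a mean of at least 1 CPM (6.29%) and the genes of known length and GC content (6.1%). Offsets for length and GC content gave 1 called member, Mrps34 (11.2% of all genes).

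**Figure D2:**
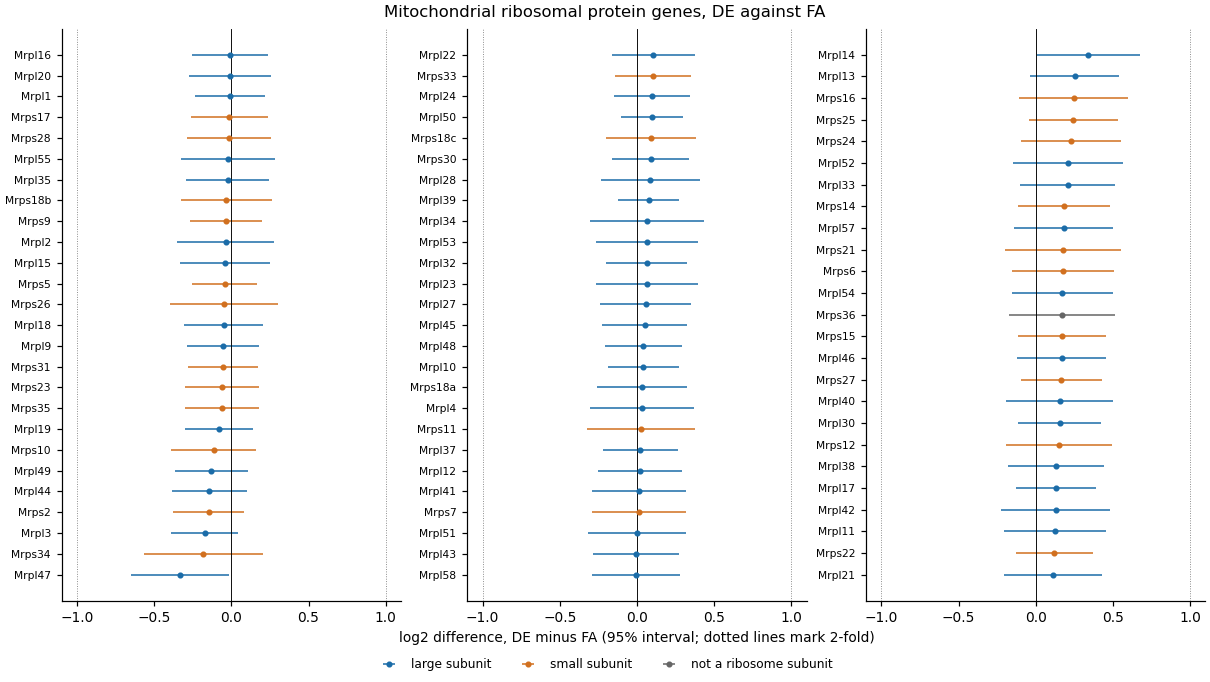
Log2 difference, DE minus FA, of the 77 members (points) with 95% intervals (lines), in order of size from bottom left to top right and coloured by subunit, with dotted lines at a 2-fold difference. The intervals of Mrpl47 (-0.65 to -0.02) and Mrpl14 (0.01 to 0.68) leave out 0, and no interval reaches 2-fold.

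Mrpl47 (Entrez gene 74600, chr3:32727497-32736755 of GRCm38.p6), a protein at the exit of the peptide tunnel, had the lowest estimate. It stood at 24.1, 28.3, 24.5 and 29.0 CPM in FA replicates 2, 3, 4 and 6, and at 19.6, 20.0, 27.2 and 17.0 CPM in DE replicates 1, 3, 5 and 7. Of the DE libraries 3 lay below every FA library, and DE replicate 5 lay above FA replicates 2 and 4. The log2 difference was -0.33 (standard error 0.144, unadjusted p = 0.0412, adjusted p = 0.177 with edgeR's quasi-likelihood test). Without DE replicate 5 the difference was -0.48 and the adjusted p 0.0530, the lowest when 1 library was dropped. With prefix 11 only the difference was -0.53 (adjusted p = 0.0776).

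Mrpl3 (Entrez gene 94062, chr9:105053268-105077466), one of the proteins near the peptidyl transferase center, showed a similar order at a higher level. Its CPM were 76.8, 89.2, 78.5 and 84.5 in FA replicates 2, 3, 4 and 6, and 65.5, 72.8, 81.9 and 71.5 in DE replicates 1, 3, 5 and 7. Again only DE replicate 5 lay among the FA libraries, with the log2 difference at -0.17 (standard error 0.099, adjusted p = 0.295). Mrpl44 (chr1:79776018-79781445), which has a fold of the RNase III family, was at 22.3, 30.3, 25.2 and 27.4 CPM in FA replicates 2, 3, 4 and 6, and at 22.3, 23.8, 25.1 and 23.9 CPM in DE replicates 1, 3, 5 and 7. The groups overlapped, the FA libraries spread more widely than the DE libraries, and the log2 difference was -0.14 (adjusted p = 0.439). With 1 library left out it ran from -0.22 to -0.07. The other low estimates were those of Mrps34 (-0.18), Mrps2 (-0.15), Mrpl49 (-0.13), Mrps10 (-0.12) and Mrpl19 (-0.08), with adjusted p of 0.398 to 0.647. Mrpl44, Mrps2, Mrpl49 and Mrpl19 overlap another protein-coding gene in the annotation, and how such reads were counted is not stated.

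Mrpl14 (Entrez gene 68463, chr17:45685722-45698495), a protein on the face of the large subunit that meets the small subunit, had the highest estimate. It was at 10.4, 13.0, 12.3 and 14.3 CPM in FA replicates 2, 3, 4 and 6, and at 14.0, 17.6, 19.0 and 12.6 CPM in DE replicates 1, 3, 5 and 7. DE replicates 3 and 5, both of prefix 12, lay above every FA library, and DE replicates 1 and 7 lay within the FA range. The log2 difference was 0.34 (standard error 0.153, unadjusted p = 0.0462, adjusted p = 0.188 with the same test), and the gene overlaps Tmem63b. The estimate was 0.09 with prefix 11 only and 0.05 with offsets for length and GC content.

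Mrpl13 (chr15:55534095-55557312), the counterpart of bacterial L13, was at 43.9, 56.7, 43.2 and 58.7 CPM in FA replicates 2, 3, 4 and 6, and at 53.8, 61.3, 70.0 and 55.9 CPM in DE replicates 1, 3, 5 and 7. DE replicates 3 and 5 again lay above every FA library, and the log2 difference was 0.25 (standard error 0.131, adjusted p = 0.250). Mrps25 (chr6:92169512-92184023), a small subunit protein, was at 17.3, 23.5, 17.9 and 21.9 CPM in FA replicates 2, 3, 4 and 6, and at 22.3, 25.4, 27.0 and 20.5 CPM in DE replicates 1, 3, 5 and 7. Here FA replicate 3 exceeded DE replicates 1 and 7, and the log2 difference was 0.24 (standard error 0.132, adjusted p = 0.267). The next estimates by p were those of Mrps24 (0.23), Mrps16 (0.25), Mrpl33 (0.21), Mrps27 (0.17) and Mrps14 (0.18), with adjusted p of 0.346 to 0.411. With prefix 11 only all 8 of these higher members were closer to 0, at 0.11 for Mrpl13, 0.09 for Mrps25, 0.08 for Mrps24, 0.01 for Mrps16, 0.06 for Mrpl33, 0.08 for Mrps27 and 0.02 for Mrps14, beside 0.09 for Mrpl14.

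**Figure D3:**
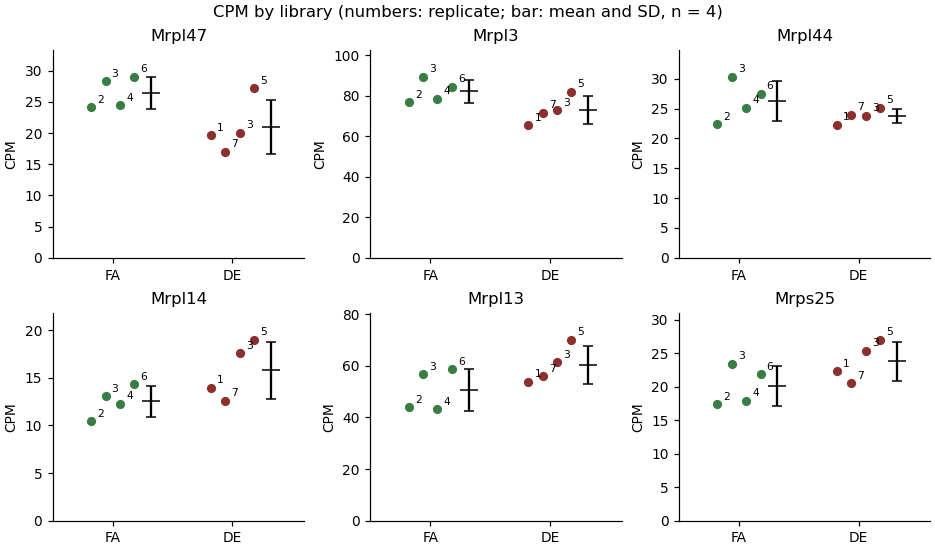
CPM of 6 members in each library (points, labelled by replicate number) with the mean and SD of the 4 libraries of each group (bars), on axes that start at 0. Of Mrpl47 and Mrpl3 only DE replicate 5 reaches the FA range, and of Mrpl14 and Mrpl13 only DE replicates 3 and 5 lie above it.

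No subunit or part of one held a called gene, and differences between their medians were not tested. The median log2 difference was 0.05 for the large subunit (34 of 50 above 0) and 0.02 for the small subunit (14 of 26 above 0). It was 0.04 for the 45 tested members with a bacterial counterpart and 0.05 for the 31 without. Among those without, the 21 of the large subunit had a median of 0.07 (17 above 0) and the 10 of the small subunit one of -0.04 (4 above 0). The 3 proteins of the stalk that recruits translation factors, Mrpl10, Mrpl11 and Mrpl12, had differences of 0.04, 0.13 and 0.02. Mrpl12, the protein that forms the mobile end of the stalk, was at 62.3 ± 9.54 FPKM in FA and 63.1 ± 6.41 in DE (SD, n = 4 each). The 7 proteins of the central protuberance had a median of 0.09, among them Mrpl18 (-0.05) and Mrps30 (0.09), and the 6 around the exit tunnel a median of 0.08, between -0.33 for Mrpl47 and 0.13 for Mrpl17.

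The 12 members listed with an inherited mitochondrial disease in humans had a median of -0.001, 6 above 0 and 6 below. Of the 4 with cardiomyopathy, Mrpl3 and Mrpl44 had negative estimates and Mrps14 (0.18) and Mrps22 (0.12) positive ones, each with overlapping groups. The 3 members of the S18 family sit in different places in the mitochondrial ribosome, Mrps18a in the large subunit and Mrps18b and Mrps18c in the small subunit. Mrps18c alone was counted above with a bacterial counterpart, although all 3 are related to bacterial S18. Their levels per length in FA were 48.2 ± 7.98, 10.6 ± 1.56 and 43.7 ± 5.17 FPKM, and their log2 differences 0.03, -0.03 and 0.09. Reads that paralogs share could have been split between them. Mrps36, the gene of the dehydrogenase complex, was at 33.5 ± 6.24 CPM in FA and 37.7 ± 6.88 in DE, with a log2 difference of 0.17 (adjusted p = 0.518). The most abundant members had estimates of 0.13 (Mrpl42), 0.21 (Mrpl33), 0.15 (Mrpl30), 0.18 (Mrps21), -0.05 (Mrpl18) and 0.21 (Mrpl52), and Mrpl57, among the least abundant, one of 0.18.

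Although the groups did not separate, the members moved together from library to library. Taken as the median deviation of the 77 genes from their own means over the 8 libraries (log2 CPM), FA replicates 2 and 4 were low (-0.24 and -0.18) and FA replicates 3 and 6 high (0.19 and 0.11). DE replicates 1 and 7 were low (-0.10 and -0.08) and DE replicates 3 and 5 high (0.07 and 0.22). In FA replicate 2, 75 of the 77 genes lay below their own mean, and in FA replicate 3 and in DE replicate 5, 75 lay above it. In FA replicates 4 and 6 and DE replicates 1, 7 and 3, the number above the mean was 6, 67, 7, 16 and 53. Cardiomyocyte markers had the sign of the members in 7 of the 8 libraries, with -0.07, 0.23, -0.07 and 0.18 in FA replicates 2, 3, 4 and 6, and -0.18, -0.09, 0.19 and -0.13 in DE replicates 1, 3, 5 and 7. Fibroblast markers were at -0.18, -0.75, -0.31 and 0.05 in the same FA libraries and at 0.75, 0.38, -0.02 and 0.27 in the DE libraries, lowest in FA replicate 3, where the members were high. The part of either cell type in the shared course was not tested. Thus each group held a low and a high pair of libraries, and in DE the high pair was the pair of prefix 12. FA replicates 2 and 4 were also closer to each other over all genes than any other pair within a group. Their count differences gave a mean chi-square per gene of 5.06, beside 16.0 to 62.8 for the other pairs. Why they were so close was not tested, and the FA spreads, p-values and intervals take all 4 FA libraries as independent. In the median deviation of the members FA replicate 2 (a library of 38619126 counts) was the lowest of the 8 and DE replicate 5 (39839737 counts) the highest. The part of library totals in the shared course was not tested.

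Both subunits followed the same course, with medians of -0.23 and -0.24 in FA replicate 2 and of 0.22 and 0.21 in DE replicate 5 for the large and the small subunit. The members with shorter transcripts (38 genes) ranged more widely over the libraries, from -0.28 to 0.29, than those with longer ones (39 genes), from -0.17 to 0.20. Among all tested genes of known length the shorter ones were also low in FA replicates 2 and 4 (-0.13 and -0.11) and high in DE replicates 3 and 5 (0.09 and 0.12), and the longer ones went the other way. The median member was 1226 bases long, against 2729 for all genes tested. In the comparison of groups the shorter members had a median of 0.10 and the longer ones of 0.01, beside 0.07 and -0.08 for shorter and longer genes of the whole table. The part of transcript length in the shared course was not tested.

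The spread within groups was smaller once the shared course was taken out. The median SD of a member within its group was 0.196 on the log2 scale, and 0.088 once the median of the members was taken out of each library. Tested genes in the same range of CPM had a median SD of 0.175, before any centering. The share of all counts taken by the members was 0.293% ± 0.039 in FA and 0.318% ± 0.034 in DE (SD, n = 4 each), a difference smaller than either SD.

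**Figure D4:**
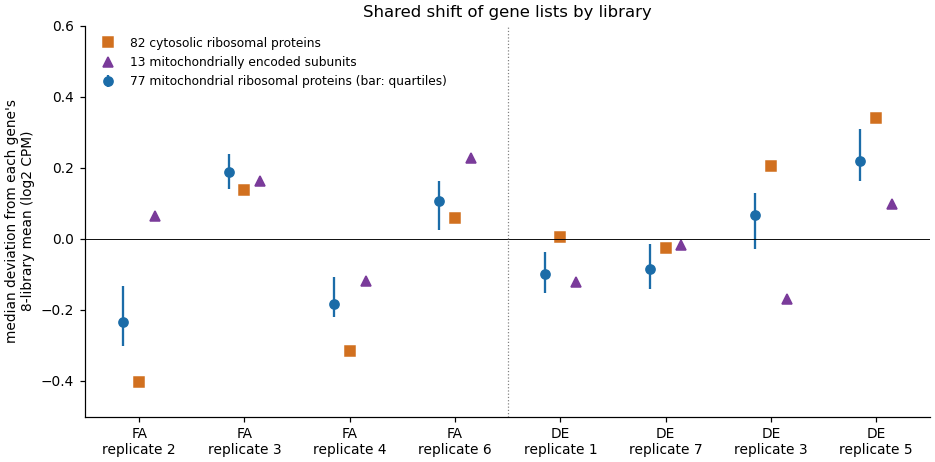
Median deviation of each gene list from the genes' own 8-library means (log2 CPM, vertical axis) in each library (horizontal axis), for 77 mitochondrial ribosomal proteins with quartiles as bars, 82 cytosolic ribosomal proteins and 13 mitochondrially encoded subunits. The mitochondrial ribosomal proteins are lowest in FA replicate 2 (-0.24) and highest in DE replicate 5 (0.22), and the cytosolic ones reach -0.40 and 0.34 in the same libraries.

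The sign of the median difference depended on the libraries used. It was 0.05 over all 8 libraries, -0.02 without FA replicate 2, -0.01 without FA replicate 4, -0.03 without DE replicate 5 and 0.12 without FA replicate 3. Among the 6 libraries of prefix 11 alone (4 FA, 2 DE) it was -0.08, with 19 members above 0, and with the prefix as a term in the fit -0.08. Prefix 12 holds only DE libraries, so that no comparison within it was possible. None of the members was called in these fits (1.75% and 2.99% of all genes with prefix 11 alone and with the prefix as a term).

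Levels were also read relative to the median of the members in each library. On this scale 9 of the 77 members had no overlap of FA and DE (4 lower and 5 higher). Among all tested genes 10.4% had none (3.77% lower and 6.63% higher), so the members' share was near that background. The scale was set by the members themselves, so that both shares are not fully alike. Lower in DE were Mrpl47, Mrpl3, Mrpl44 and Mrpl15, and higher were Mrps24, Mrpl13, Mrpl33, Mrps25 and Mrpl46. For Mrpl47 the log2 deviations were 0.28, 0.09, 0.25 and 0.21 in FA replicates 2, 3, 4 and 6, and -0.15, -0.29, 0.00 and -0.37 in DE replicates 1, 3, 5 and 7. Mrpl13 ran from -0.16 to -0.01 in FA and from 0.07 to 0.13 in DE. When the libraries were scaled in the fit by the median of the members, 0 members were called (0.895% of all genes), and the lowest adjusted p was 0.143, for Mrpl47 at -0.40.

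**Figure D5:**
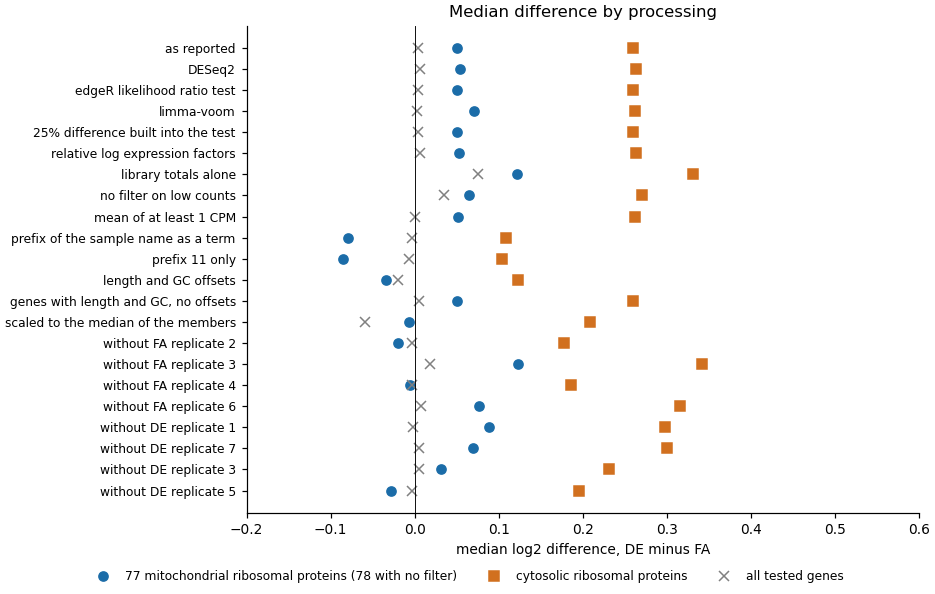
Median log2 difference, DE minus FA (horizontal axis), of the mitochondrial ribosomal proteins, the cytosolic ribosomal proteins and all tested genes, for the fit as reported and 21 alternatives (rows). The mitochondrial median runs from -0.08 with prefix 11 only to 0.12 with library totals alone or without FA replicate 3, and the cytosolic median stays above 0.

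Promoters were examined because the members moved together. RefSeq start sites on GRCm38.p6 were matched for 69 members, with 75 windows of 300 bases (250 before and 50 from the start on), and 4 motifs known from promoters of mitochondrial genes were searched on both strands. The ETS family core CCGGAAG, to which GABP binds, was in 34.7% of these windows, beside 16.0% of the windows of all tested genes and 11.6% of those of all protein-coding genes. The YY1 core AAGATGGC was in 16% (4% and 3.05%), the 10-base NRF1 motif, in capitals in the Mrpl39 window, in 4% (1.87% and 1.33%) and the E-box CACGTG in 9.33% (9.58% and 7.84%). The ETS and YY1 letters can overlap in AAG, and 35 of the 69 genes held at least 1 of them, with 3 holding both (Mrps12, Mrps18a and Mrps27). The windows of 4 genes are shown, in lower case with the motif letters in capitals and each on the strand of its gene, to show how these motifs lie around a start. Mrps18a (chr17:46110754-46111053, plus strand) has the ETS core from 26 bases before the start and the YY1 core from 11 bases after it. Mrpl3 (chr9:105053018-105053317, plus strand) has the ETS core from 19 bases before the start, and Mrpl39 (chr16:84735195-84735494, minus strand) the NRF1 motif from 125 bases before it. Mrps11 (chr7:78782881-78783180, plus strand) has the YY1 core on the other strand, from 107 bases before the start.
Mrps18a: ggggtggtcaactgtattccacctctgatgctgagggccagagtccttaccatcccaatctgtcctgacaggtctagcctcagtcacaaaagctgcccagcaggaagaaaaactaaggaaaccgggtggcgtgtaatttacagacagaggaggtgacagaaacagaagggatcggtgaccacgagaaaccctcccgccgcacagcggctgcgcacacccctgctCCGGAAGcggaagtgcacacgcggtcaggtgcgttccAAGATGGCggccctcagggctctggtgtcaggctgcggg
Mrpl3: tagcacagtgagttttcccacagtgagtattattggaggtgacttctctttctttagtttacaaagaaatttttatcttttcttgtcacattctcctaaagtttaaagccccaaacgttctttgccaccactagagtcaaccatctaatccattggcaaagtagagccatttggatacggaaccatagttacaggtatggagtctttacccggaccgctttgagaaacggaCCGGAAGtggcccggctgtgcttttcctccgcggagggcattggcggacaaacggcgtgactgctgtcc
Mrpl39: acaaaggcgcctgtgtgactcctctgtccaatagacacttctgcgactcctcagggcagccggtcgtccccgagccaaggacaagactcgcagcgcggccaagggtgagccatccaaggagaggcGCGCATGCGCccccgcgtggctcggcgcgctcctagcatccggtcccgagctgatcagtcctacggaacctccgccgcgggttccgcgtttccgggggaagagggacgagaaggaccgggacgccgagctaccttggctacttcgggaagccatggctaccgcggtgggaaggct
Mrps11: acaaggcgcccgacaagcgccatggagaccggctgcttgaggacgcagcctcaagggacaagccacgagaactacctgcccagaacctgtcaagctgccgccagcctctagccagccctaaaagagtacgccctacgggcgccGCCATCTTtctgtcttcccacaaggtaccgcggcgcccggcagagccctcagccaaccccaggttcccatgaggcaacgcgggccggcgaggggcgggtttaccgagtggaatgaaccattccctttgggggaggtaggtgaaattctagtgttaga

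Differences between members with and without a motif were not tested. The median log2 difference was 0.08 for the 26 genes with the ETS core and 0.03 for the 42 tested genes without it, 0.03 for the 11 with the YY1 core and 0.06 for the 57 without. The 3 genes with the NRF1 motif, Mrpl32, Mrpl39 and Mrpl9, had a median of 0.06, as did the 65 without. It was 0.01 for the 4 with the E-box and 0.06 for the 64 without. A match is a description of letters and says nothing of binding in NCMs.

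The members lie on 17 chromosomes, with 11 genes on chromosome 11, 8 on chromosome 17 and 7 on chromosome 6. The only pair within 20000 bases of each other was Mrpl46 and Mrps11 on chromosome 7, which are transcribed away from each other across a gap of 42 bases and so share the window shown for Mrps11 in part. Their log2 differences were 0.17 and 0.03, and their groups overlapped. Of the 78 members 20 overlap another protein-coding gene in the annotation, so that their counts are uncertain where strand was not used in counting.

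The rest of the translation machinery was read from the same fit, in which 5.8% of all tested genes were called (2.22% lower), 25.6% reached p under 0.05 before adjustment and 14.7% had groups that did not overlap (7.26% lower, 7.44% higher). The 5 mitochondrial ribosomal proteins with other names had estimates above 0 for Dap3, Aurkaip1, Chchd1 and Gadd45gip1 (0.04 to 0.19) and below 0 for Ptcd3 (-0.17, adjusted p = 0.228), with 0 calls (0 at p under 0.05 before adjustment). The FA and DE groups of Ptcd3, a small subunit protein also called mS39, did not overlap, at 141 to 153 CPM in FA and 122 to 137 in DE, which made 1 of these 5 beside the 14.7% of all genes. Of 26 assembly factors 17 were below 0 and 9 above, there were 0 calls (2 at p under 0.05 before adjustment) and the median was -0.06. Nsun4, Dhx30 and Fastkd2 had groups that did not overlap. Nsun4, a methyltransferase of the small subunit RNA that also helps to join the subunits, had the lowest p among them, at 42.0 ± 4.04 CPM in FA and 33.2 ± 1.44 in DE (log2 difference -0.33, adjusted p = 0.0665).

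Among 15 mitochondrial translation factors and regulators found in the counts, 11 were below 0 and the median was -0.21. An unadjusted p under 0.05 was reached by 6 of the 15 (25.6% of all genes), and 1 was called (5.8% of all genes). Mtif2, the initiation factor that brings the first tRNA to the ribosome, was that gene. It was at 48.8, 46.5, 48.5 and 46.4 CPM in FA replicates 2, 3, 4 and 6, and at 37.2, 37.3, 39.9 and 36.9 CPM in DE replicates 1, 3, 5 and 7. Every DE library lay below every FA library, and the log2 difference was -0.33 (standard error 0.083, adjusted p = 0.0427 with edgeR's quasi-likelihood test). The call was lost whichever library was dropped, with adjusted p of 0.0549 to 0.132 and differences of -0.36 to -0.32, and also with the prefix as a term (adjusted p = 0.0812) and with prefix 11 only (0.119). The groups were also apart for Gfm1, an elongation factor (-0.26, adjusted p = 0.102), Lrpprc, which stabilizes mitochondrial messages (-0.30, adjusted p = 0.0873), and Mtrf1, a release factor (-0.30, adjusted p = 0.165), so that 4 of the 15 did not overlap, beside 14.7% of all genes. Slirp, the partner of Lrpprc, had an estimate of 0.36 (adjusted p = 0.221).

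Of 22 mitochondrial aminoacyl-tRNA synthetases and related genes 8 were below 0 and 14 above, with a median of 0.05 and 0 calls against 5.8% of all genes (7 at p under 0.05 before adjustment, against 25.6%). Of these 22, 4 had groups that did not overlap, each lower in DE (7.26% of all genes). Of the 7 at p under 0.05, 3 had estimates above 0 with overlapping groups, Lars2 (0.64), Cars2 (0.35) and Gars (0.31). Lars2 was at 572 ± 97.7 CPM in FA and spread widely in DE, at 893 ± 332. The lowest p was that of Nars2, at 15.8 ± 1.46 CPM in FA and 12.4 ± 0.800 in DE (log2 difference -0.34, adjusted p = 0.0843). The 13 messages that the mitochondrial ribosome translates had a median of -0.12, with 9 below 0 and 0 calls (3 at p under 0.05 before adjustment). Groups did not overlap for 2 of the 13, ND4 and ND5, both lower in DE (7.26% of all genes). ND4, with the lowest p, was at 12683 ± 1094 CPM in FA and 9734 ± 979 in DE (log2 difference -0.38, adjusted p = 0.0612). Estimates were lower for ND5 (-0.44, adjusted p = 0.0694) and for ATP8 (-0.54, adjusted p = 0.0770), whose groups overlapped. Above 0 were 4, up to 0.19 for ND3. The median deviations of the 13 messages were 0.07, 0.16, -0.12 and 0.23 in FA replicates 2, 3, 4 and 6, and -0.12, -0.17, 0.10 and -0.02 in DE replicates 1, 3, 5 and 7. The sign was that of the members in 6 libraries and the opposite in FA replicate 2 and DE replicate 3.

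Among 10 transcription regulators of mitochondrial genes 7 were below 0 and 1 was called lower, beside 2.22% of all genes. This was Ppargc1b, a coactivator of nuclear genes for mitochondrial proteins, which is also among the genes the study picked from these libraries, so that its call is not independent evidence. Its CPM were 36.7, 27.1, 37.2 and 22.9 in FA replicates 2, 3, 4 and 6, and 20.5, 17.3, 18.9 and 16.5 in DE replicates 1, 3, 5 and 7. The groups did not overlap, and the log2 difference was -0.76 (standard error 0.158, adjusted p = 0.0224). The call was lost without FA replicate 2 (adjusted p = 0.0791), FA replicate 4 (0.0734) or DE replicate 3 (0.0696), and also with the prefix as a term (0.0680), with prefix 11 only (0.0939), with a test against a 25% difference (0.130) and with scaling to the members (0.148). The log2 difference stayed between -0.88 and -0.67 over all alternatives. Within FA, Ppargc1b was higher in replicates 2 and 4, where the members were low, than in replicates 3 and 6, where they were high. DE showed no such order, with 20.5 and 16.5 CPM in the low replicates 1 and 7 and 17.3 and 18.9 in the high replicates 3 and 5. Gabpa, the DNA-binding subunit of GABP, was at 124 ± 16.5 CPM in FA and 102 ± 17.3 in DE (log2 difference -0.28, adjusted p = 0.231), and Nrf1 and Yy1 had estimates of 0.10 and -0.11.

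The cytosolic ribosomal proteins, which make up the ribosome that translates the members' own messages, had a higher median. Of 82 tested genes 81 were above 0 and 1 below, with a median of 0.26, and there were 0 calls (17 at p under 0.05 before adjustment). FA and DE libraries were fully apart for 2 of the 82, both higher in DE (7.44% of all genes), and the 17 at p under 0.05 stand beside 25.6% of all genes. The gene with the lowest p was Rps6, a phosphorylated protein of the small cytosolic subunit, at 77.1 ± 11.1 CPM in FA and 95.8 ± 6.37 in DE (log2 difference 0.32, adjusted p = 0.119). These genes shared the library course of the members in FA, with -0.40 and -0.31 in replicates 2 and 4 and 0.14 and 0.06 in replicates 3 and 6, and their median stayed above 0 in the fits with prefix 11 alone (0.10) and with offsets for length and GC content (0.12), where that of the members was -0.08 and -0.03. The difference between both families was not tested.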

How the data were processed

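Raw fragment counts per Entrez gene, as deposited by the authors without normalization, were used for 8 libraries. Per the study's methods, poly-A RNA was made into stranded libraries, reads were aligned to mm10 with Tophat, duplicates were marked but kept, and fragments were counted with featureCounts. Which annotation was counted, whether strand was used and how multiply mapped reads were handled are not given in the sources used here, and kept duplicates make counting precision look better than it is. The methods give a smaller number of animals per group than the libraries deposited, and all 8 libraries were used.

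Symbols were matched for 25275 of 27179 genes (1904 without a symbol). Genes were kept by edgeR's filterByExpr (minimum count 10), normalized by TMM, and fitted by edgeR's quasi-likelihood functions glmQLFit and glmQLFTest (edgeR 4.0.16, R 4.3.3). Exposure was the sole factor, and p was adjusted by Benjamini-Hochberg over 14966 genes. CPM use the same factors. FPKM divide CPM by the median length of a gene's protein-coding transcripts in GENCODE M21 basic. The code was tested on simulated data. Members were named by these rules: the 8 with the smallest p in each direction, the 6 most and 4 least abundant per length, the S18 paralogs, Mrpl12, the 4 cardiomyopathy genes, Mrps30 and Mrps36, and from other lists the called genes or else that with the smallest p. Others named with values were chosen after their values were seen. The members, lists and motifs were chosen with earlier results of these data known, and no list was tested as a set. The other lists held genes of mitoribosome assembly, translation factors, aminoacyl-tRNA synthetases, mitochondrially encoded subunits, regulators and cytosolic ribosomal proteins, with Mtrfr and Hbb-bt not matched.

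The comparison was repeated with limma-voom (limma 3.58.1), DESeq2 1.42.0, a likelihood ratio test in edgeR, the 25% difference built into the test, relative log expression factors, library totals alone, no filter, genes averaging 1 CPM or more, the prefix as a term, prefix 11 only, length and GC offsets (5 spline degrees of freedom, known for 92.55% of tested genes) and each library left out. Scaling to the members' median and the genes of known length and GC content without offsets were added after the data were seen.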

Additional observations from a re-analysis of the deposited data

Results flagged for a closer look

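In 1 of 64 groups of 4 libraries examined, a library stood far from the other 3 (chance flags about 1 in 20 groups). For Mrps2, a protein of the small subunit, DE replicate 7 was lowest at 26.5 CPM, while the other DE libraries lay between 28.9 and 29.1. The gap was 0.930 of the whole range of the group. FA replicate 4, at 27.0 CPM, was close to it, and the gene overlaps another protein-coding gene.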

How the results depend on the processing

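No member was called under 20 of the 21 alternatives. The exception was the fit with length and GC offsets, which called 1 member, Mrps34 (-0.46, adjusted p = 0.0158, beside 11.2% of all genes). All genes called numbered 868 as reported, 1633 with DESeq2, 1603 with the likelihood ratio test, 114 with the 25% difference built in, 448 with the prefix as a term, 260 with prefix 11 only, 1550 with the offsets and 134 scaled to the members, and between 237 and 1168 with a library left out. The causes were not tested. Prefix 11 only and the fits without a library use fewer samples, and the count of 1168, above that of all 8 libraries, was reached without DE replicate 1. The members' median moved by less than the SD between libraries (0.182) throughout, but was below 0 under 6 alternatives, leaving aside the scaling to the members, which itself sets it near 0. Library totals alone raised the median of all genes to 0.08 and that of the members to 0.12.

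Of 30 named members 18 kept their sign under every alternative, though not their size. Over all alternatives Mrps16 ran from 0.01 to 0.37, Mrps14 from 0.02 to 0.29, Mrpl30 from 0.02 to 0.23, Mrpl14 from 0.05 to 0.43, Mrps24 from 0.06 to 0.35, Mrpl33 from 0.06 to 0.32, Mrps34 from -0.46 to -0.08 and Mrpl47 from -0.53 to -0.25. With prefix 11 only, Mrps21 (-0.0409), Mrps18c (-0.0848), Mrps18a (-0.114), Mrpl57 (-0.0122), Mrpl52 (-0.00722), Mrps36 (-0.0681), Mrpl17 (-0.0153), Mrpl12 (-0.104) and Mrpl42 (-0.0924) turned negative. With the prefix as a term the same 9 did (-0.0355, -0.0796, -0.109, -0.00656, -0.0021, -0.0628, -0.0105, -0.0985 and -0.0872). With the offsets Mrps18c (-0.0107), Mrps18a (-0.183), Mrpl52 (-0.0343) and Mrpl12 (-0.147) turned negative and Mrpl19 (0.0272) positive. Library totals alone turned Mrpl18 (0.0213) and Mrps18b (0.0373) positive, and scaling to the members turned Mrps18a (-0.0172) and Mrpl12 (-0.0319) negative. With a library left out the estimates ran, for Mrpl12 from -0.0637 to 0.0877, for Mrpl18 from -0.134 to 0.0147, for Mrpl42 from -0.00138 to 0.219, for Mrps18a from -0.0423 to 0.114, for Mrps18b from -0.101 to 0.0579, for Mrps18c from -0.0289 to 0.145.

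In the other lists, DESeq2 called 1 assembly factor, 2 synthetases and 3 mitochondrially encoded subunits, and the likelihood ratio test 1, 0 and 3. The offsets called 2 assembly factors, 1 synthetase, 3 mitochondrially encoded subunits, 2 regulators and 0 translation factors. Translation factors called fell to 0 with the 25% difference built in, library totals alone, no filter, the prefix as a term, prefix 11 only and scaling to the members, and regulators to 0 with the first and the last 3 of these. With a library left out, 0 translation factors, 0 to 1 regulators, 0 to 1 synthetases and 0 to 2 mitochondrially encoded subunits were called.

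No paired analysis was made, because neither the labels nor the methods pair FA with DE libraries. With 4 libraries a group and exposure alone in the fit, most intervals exclude a 1.5-fold difference of a member but not one of 25%.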
